A study of Mus musculus with 14 samples.

Results

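The comparison set 7 arrays of mSCC-38 cells transfected with an siRNA against the transcript AK144841 beside 7 control arrays, which together are all 14 arrays of the series. The siRNA arrays were 4 of Si1AK and 3 of Si2AK, 2 distinct siRNAs with the same stated target, and the control arrays were 3 of a control siRNA (SiC) and 4 of non-transfected cells (NT). mSCC-38 is a mouse cell line from a skin squamous cell carcinoma raised with the carcinogen DMBA and the tumour promoter TPA, and all groups share that line and its culture medium. Transfection used the lipid reagent RNAimax and cells were harvested at 72 h, while the labels give no time for the NT cells. The samples were assigned by their titles and transfection labels, which include 2 SiC arrays titled as NC. Each gene was compared as the mean of the 2 siRNA groups minus the mean of the 2 control groups, and a gene was also called separated when every siRNA array lay above, or every one below, all 7 control arrays. A difference from NT includes any effect of transfection, which SiC shares with the siRNA groups. The labels do not state that the replicates came from different cultures, so the p-values reflect only the variation among these arrays, and that variation may be technical.

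An siRNA is a short duplex RNA that guides the RNA-induced silencing complex to transcripts with a matching sequence, and it can also lower transcripts that match only its seed. For that reason changes shared by distinct siRNAs, and absent between controls, are commonly read apart from changes seen with a single siRNA. Skin keratinocytes divide in the basal layer and, as they leave it, stop replicating DNA and build the cornified envelope from proteins whose genes lie in the epidermal differentiation complex. In squamous carcinoma cells both programmes can be active in the same culture.

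Levels are log2 processed signal minus the 75th percentile of the array, so a level of 0 is a probe as bright as that percentile, and differences are on the log2 scale with the moderated SE of limma. Of 55681 probes, 30299 were kept because all arrays of some group had them well above background, and they gave 21354 genes. Si2AK replicate 2 and SiC replicate 1 stood apart, with 84.9% and 90.5% of spots well above background, against 52.7% to 60.1% on the other 12 arrays. The first principal component, 58.0% of the variance, placed them at -108 and -159. The arrays lay on 2 slides that each held every group, and both of these were on slide 1. Of 15 keratinocyte markers, 13 were well above background on all 14 arrays, among them Krt5 and Krt14, and Cdh1 was not kept. The mean level of the kept keratinocyte markers ran from 3.70 to 4.32 on siRNA arrays and from 3.77 to 4.41 on control arrays. Of the probed markers of other cell types, 3 of 10 fibroblast, 6 of 11 leukocyte, 5 of 10 endothelium and 3 of 9 melanocyte markers were above background on all 14 arrays. Their highest mean level on any array was 0.36 on siRNA arrays and 0.34 on control arrays, both for the leukocyte list. Ptprc, which defines leukocytes, was not kept, although single markers were bright, such as Itgam (3.45 with the siRNAs and 3.69 in the controls) and Kdr (3.48 and 3.51). Cd68 was the leukocyte marker called higher, by 0.68, and Flt1 the endothelium marker called higher, by 0.50. The other kept probe of Flt1 differed by 0.17, not called. The kept fibroblast markers averaged -3.56 to -1.89 on siRNA arrays and -3.37 to -2.01 on control arrays. Of the 6, 3 were called higher with the siRNAs, where 8.31% of all genes were. The differences of 4 were positive and of 2 negative, Col1a2 (-0.74) and Col3a1 (-0.59), neither called. The part of the fibroblast markers in the results was not tested.

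The largest separated difference in either direction was a fall in a transcript without a gene name, read by 3 probes of an array region at chr4:88745770-88774130 (mm9, reverse strand). The region lies between the probes of Wincr1 and Mtap, the gene of methylthioadenosine phosphorylase. The target AK144841 was not matched to a probe here, so its own level is not reported and whether this region carries it was not determined. The 3 probe sequences, shown because they carry this finding, are read from the array file and cover chr4:88745833-88746012 without a break, with no part in capitals.
Probe 1: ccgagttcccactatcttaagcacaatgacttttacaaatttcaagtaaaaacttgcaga
Probe 2: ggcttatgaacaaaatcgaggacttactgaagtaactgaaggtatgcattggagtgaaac
Probe 3: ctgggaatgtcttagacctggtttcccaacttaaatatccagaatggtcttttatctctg
The probe that stood for the region had levels of -0.78, -0.93, -0.53 and 0.18 on the Si1AK arrays and -1.04, -1.27 and 0.29 on the Si2AK arrays. On the control arrays it had 1.82, 2.46 and 2.36 in SiC and 2.39, 2.50, 2.33 and 2.24 in NT. The 2 sets of arrays did not overlap, and the highest siRNA array lay 1.53 below the lowest control array. The difference was -2.88 ± 0.25 (SE, adjusted p = 5.9e-05 by limma), a level 7.38-fold lower with the siRNAs. Each probe alone gave a similar value, -2.88, -2.86 and -2.92. Si1AK differed from SiC by -2.73 and from NT by -2.88, and Si2AK differed from SiC by -2.89 and from NT by -3.04. Neither the siRNAs (-0.16, adjusted p = 0.82) nor the controls (SiC minus NT, -0.15, adjusted p = 0.87) differed past the threshold from each other. Over the alternative settings tried, the difference of chr4:88745770-88774130_R ran from -3.14 to -2.29, and it missed the threshold with array-median scaling alone (-2.44, adjusted p = 0.23 by limma). The surroundings of the region did not share a change of this size. Within 250000 bases on either side there were 27 other kept probes, whose differences ran from -0.80 to 0.07, and 1 of them was called lower and 0 higher. On the forward strand of the same stretch, the 2 kept probes were well above background on 6 and 10 of the 14 arrays and differed by 0.07 and -0.33, neither called.

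**Figure D1:**
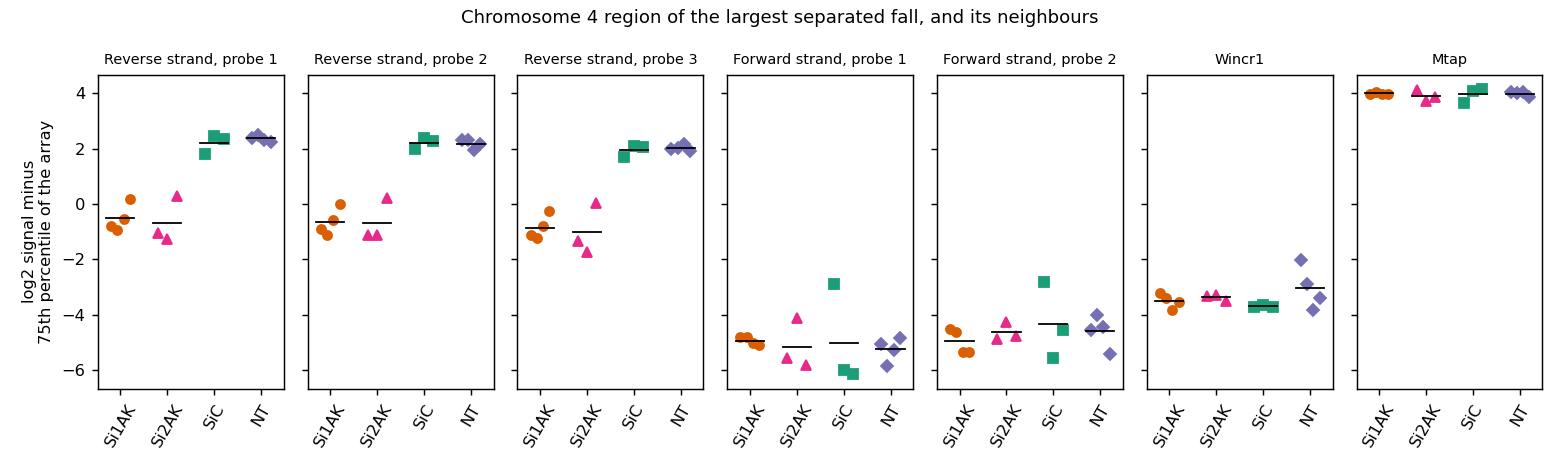
Level of the chromosome 4 region on each array (log2 processed signal minus the 75th percentile of the array), by group, with 1 point per array and a line at the group mean. The 3 reverse-strand probes are lower on all 7 siRNA arrays than on any control array, while the forward-strand probes, Wincr1 and Mtap are not.

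Across all genes, 1775 were called higher with the siRNAs (8.31% of those tested) and 1008 lower (4.72%) at an adjusted p below 0.05. Of these, 113 were at least 2-fold higher and 31 at least 2-fold lower, so most called differences were small. The median difference of all genes was -0.04. Every siRNA array lay above every control array for 546 genes (2.59% of the 21058 with a value on all arrays) and below for 194 (0.921%). Of the separated genes, 531 were also called higher and 192 lower. Because separation picks genes by the same values that the fit reads, these counts describe the arrays and carry no test of their own. The separated and called genes had a median difference of 0.52 when higher and 0.54 in size when lower. The median gap between the nearest siRNA and control arrays was 0.10 and 0.09.

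**Figure D2:**
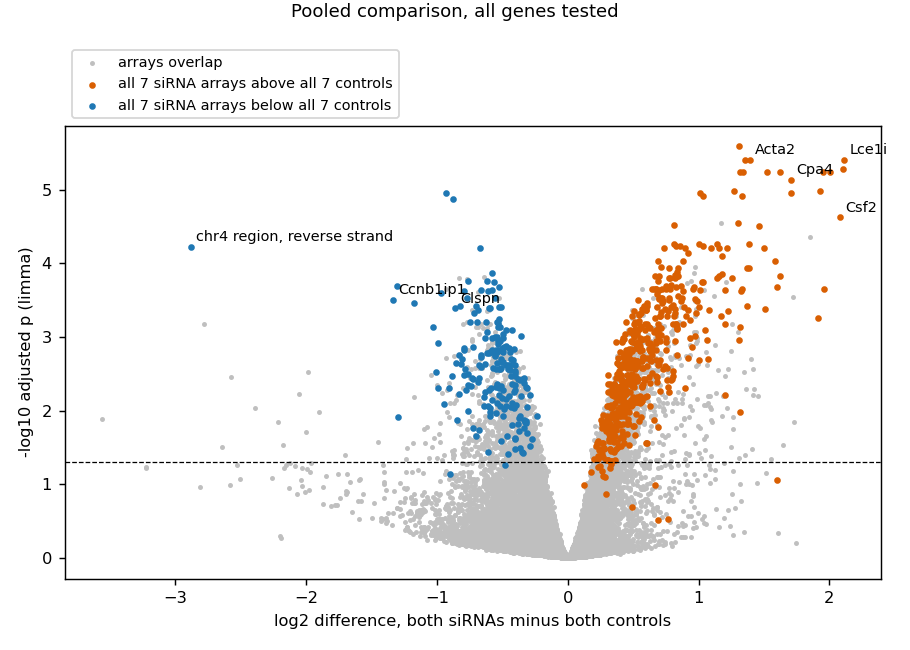
Pooled log2 difference (both siRNAs minus both controls, horizontal) against -log10 of the adjusted p from limma (vertical) for all 21354 genes, with the dashed line at an adjusted p of 0.05. The 546 genes with all siRNA arrays above all controls are orange and the 194 with all below are blue. The chromosome 4 region stands at -2.88 and Lce1i at 2.11.

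At the edge of separation, Acsbg1 (0.38) and Lrig1 (0.27) were just inside on the higher side, and Arhgap11a (-0.29) and Etaa1 (-0.53) just inside on the lower. Pdcl3 (0.53), Pcnx4 (0.40), Trp73 (-0.58) and Ccdc18 (-0.64) were just outside, each with a single pair of arrays that touched within 0.01.

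The largest named rise was in the late cornified envelope genes, which code for small cross-linked proteins of the outer epidermis. Of 46 measured genes of the cornified envelope and terminal differentiation list, 22 were called higher and 0 lower, with a median difference of 0.66 against -0.04 over all genes. Of the same 46, 8 were called higher for Si1AK against SiC and 20 for Si2AK against SiC, where 2.73% and 8.32% of all genes were. For Si2AK against Si1AK 10 were called higher and 2 lower, where 5.65% and 5.22% of all genes were. Separated members were Lce1i, Lce1g, Lce1c, Crct1, Lce1j and Lce1a2. Lce1i had levels of 4.57, 4.58, 4.25 and 4.27 in Si1AK and 4.66, 4.62 and 4.78 in Si2AK. In the controls it had 1.87, 2.24 and 2.69 in SiC and 2.66, 2.69, 2.65 and 2.45 in NT. No control array came within 1.56 of an siRNA array, the widest gap among named genes. The difference was 2.11 ± 0.12 (adjusted p = 3.9e-06), 4.32-fold. Lce1c ran from 2.92 to 3.46 (median 3.03) with the siRNAs and from 0.48 to 1.41 (median 1.25) in the controls, a difference of 1.93. Lce1g differed by 2.01 and Crct1, a cysteine-rich neighbour of the family, by 1.58. Lce1 probes may bind transcripts of other family members, since these genes are nearly identical in parts, so how many family members moved is uncertain. With a plain fit of 7 against 7 arrays, 10 of the 46 were called higher, where 906 of all 21354 genes were.

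The promoters of Lce1i and Lce1c are shown because both genes were separated and called higher (RefSeq, GRCm38.p6, 250 bases before to 50 after the start). They lie at chr3:92778850-92779149 on the reverse strand and chr3:92678997-92679296 on the forward strand. Capitals mark GGAATG, the core read by TEAD factors, and no other searched motif matched.
Lce1i: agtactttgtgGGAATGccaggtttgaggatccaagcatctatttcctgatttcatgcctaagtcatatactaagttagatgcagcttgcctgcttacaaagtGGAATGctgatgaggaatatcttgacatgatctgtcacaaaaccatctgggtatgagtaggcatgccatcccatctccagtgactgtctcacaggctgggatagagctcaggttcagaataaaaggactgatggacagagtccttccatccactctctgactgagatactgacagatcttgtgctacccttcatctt
Lce1c: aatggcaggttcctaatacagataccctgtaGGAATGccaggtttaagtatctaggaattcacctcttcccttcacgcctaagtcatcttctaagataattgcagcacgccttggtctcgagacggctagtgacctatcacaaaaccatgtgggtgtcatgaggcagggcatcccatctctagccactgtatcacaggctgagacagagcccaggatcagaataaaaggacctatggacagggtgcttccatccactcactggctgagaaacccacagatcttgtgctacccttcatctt
Over an alignment with 274 paired bases, 229 were identical, which is 70.3% of the alignment with gaps counted. GGAATG on either strand was in 14.9% of 397 promoters of separated and called higher genes, 9.52% of 105 of lower genes, 12.1% of 10417 promoters of named tested genes and 14.6% of all 27025 in the table. A match describes letters in the window and is no evidence of binding.

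Of 39 measured genes of cytokines, chemokines and NF-kB, 18 were called higher and 0 lower in the pooled comparison, with a median difference of 0.41. The siRNAs differed on this list: Si2AK against SiC had 23 called higher and 0 lower (median 0.73), while Si1AK against SiC had 2 higher and 1 lower (median -0.08). Between the siRNAs, 21 of the 39 were called higher with Si2AK and 0 with Si1AK. Over all genes, 8.32% were called higher for Si2AK against SiC, 2.73% for Si1AK against SiC and 5.65% for Si2AK against Si1AK. Csf2, which codes for the myeloid growth factor GM-CSF, had 0.30, 0.24, -0.12 and 0.25 in Si1AK and 0.98, 0.84 and 1.85 in Si2AK. In the controls it had -1.27, -1.31 and -1.34 in SiC and -1.11, -1.39, -1.67 and -1.67 in NT. All siRNA arrays lay above all controls, and Si2AK was 1.05 higher than Si1AK (adjusted p = 0.01). The pooled difference was 2.08 ± 0.16 (adjusted p = 2.4e-05). Il1a, the epithelial alarmin interleukin 1 alpha, ran from 2.71 to 4.33 with the siRNAs and from 1.62 to 2.62 in the controls. Against SiC, Il1a gave 1.64 with Si2AK, called, and 0.57 with Si1AK, not called (adjusted p = 0.13 by limma). Csf1, the macrophage growth factor, differed by 0.77. Cxcl2 (1.85) and Csf3 (1.72) were called higher while their arrays overlapped. With a fit of 7 against 7 arrays, 7 of the 39 were called higher, where 906 of all 21354 genes were.

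Of 28 genes of EGF receptor ligands, receptors and MAPK feedback, 13 were called higher and 0 lower, where 8.31% of all genes were called higher. Against SiC, 14 were called higher with Si2AK and 0 with Si1AK, where 8.32% and 2.73% of all genes were. For Si2AK against Si1AK 8 were called higher, where 5.65% of all genes were. Nrg1, a ligand of ERBB receptors, differed by 0.71 and Egfr itself by 0.45, each separated. The other kept probes of Egfr differed by 0.20 and 0.17, neither called. Dusp10, a phosphatase that turns off stress kinases, differed by 0.92. For Si1AK against SiC, Egfr (0.44, adjusted p = 0.073), Nrg1 (0.42, adjusted p = 0.092) and Dusp10 (0.60, adjusted p = 0.06) did not pass the threshold. Nrg1 was 0.77 higher with Si2AK than with Si1AK (adjusted p = 0.002). Among 24 immediate early and AP-1 genes, 10 were called higher and 0 lower. Against SiC, 9 were called higher with Si2AK, and 4 higher and 1 lower with Si1AK. Ccn1 (0.81), Klf6 (0.51), Maff (0.49) and Klf4 (0.41) were separated. With Si1AK against SiC, Ccn1 was called (1.05, adjusted p = 0.012 by limma). Klf6 (0.49, adjusted p = 0.17), Maff (0.34, adjusted p = 0.13) and Klf4 (0.24, adjusted p = 0.32) were not. With the 7 against 7 fit the EGF receptor list had 5 called, where 906 of all 21354 genes were called higher and 520 lower.

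Of 36 actin cytoskeleton and SRF target genes, 16 were called higher and 1 lower, where 8.31% of all genes were called higher. Against SiC, 12 were called higher with Si2AK and 6 with Si1AK, and 1 lower with each. In these comparisons 8.32% and 2.73% of all genes were called higher. Acta2, smooth muscle actin, ran from 5.24 to 6.17 (median 5.52) with the siRNAs and from 4.13 to 4.54 (median 4.35) in the controls. Its difference was 1.39 ± 0.07 (adjusted p = 3.9e-06). Cnn1, calponin, differed by 1.03. Myl9 differed by 1.73 with overlapping arrays. Of 32 genes of plasminogen activators and matrix proteases, 15 were called higher and 0 lower, 9 with Si2AK against SiC and 8 with Si1AK. Cpa4, a carboxypeptidase, had 1.88, 1.83, 1.72 and 1.31 in Si1AK and 1.11, 0.73 and 0.79 in Si2AK, against -0.70, -0.62 and -0.35 in SiC and -0.10, -0.41, -0.44 and -0.21 in NT. Mmp10, a stromelysin, differed by 1.32, Serpinb2, the inhibitor PAI-2 of plasminogen activators, by 1.15, and Mmp1b by 1.07. Each of these 4 genes was separated, and for Cpa4 Si2AK lay below Si1AK (-0.81, adjusted p = 0.0064). For Mmp10 the gap was 0.09, and neither siRNA alone passed the threshold against either control. Its adjusted p by limma was 0.088 against SiC and 0.058 against NT with Si1AK, and 0.078 and 0.061 with Si2AK.

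More p53 target genes were higher than lower with the siRNAs. Of 38 measured, 22 were called higher and 2 lower, Ckap2 (-0.37) and Ddb2 (-0.34), with a median difference of 0.40. Against SiC, 12 were called higher with Si2AK and 13 with Si1AK, where 8.32% and 2.73% of all genes were. Cdkn1a, the inhibitor p21 of cyclin-dependent kinases, had 4.89, 5.12, 4.83 and 4.58 in Si1AK and 4.77, 4.49 and 4.68 in Si2AK, against 3.80, 4.03 and 4.18 in SiC and 4.18, 4.03, 4.09 and 4.32 in NT. All siRNA arrays lay above all controls, and the difference was 0.67 ± 0.10 (adjusted p = 0.0012). Its other 2 kept probes differed by 0.21, not called, and 1.17, called. Plk3, Plk2, Dcxr and Tnfrsf10b, a death receptor, differed by 1.18, 0.78, 0.82 and 0.75. Plk3 was 1.42 higher with Si2AK than with Si1AK, and its Si1AK difference from SiC was 0.51 (adjusted p = 0.093).

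Other genes with large separated rises came from no single list. Cryab, a small heat shock protein, ran from 3.80 to 4.55 (median 4.03) with the siRNAs and from 1.85 to 2.52 (median 2.08) in the controls, a difference of 1.95. Its head-to-head neighbour Hspb2 differed by 1.20, and these 2 were the separated genes among 23 heat shock genes. Of the 23, 4 were called higher, where 8.31% of all genes were. Sema7a, a membrane-anchored semaphorin, differed by 1.96, Nppb, the natriuretic peptide BNP, by 1.91, and Ankrd1, a YAP target, by 1.51. Rgs16, a regulator of G-protein signals, differed by 1.60, Dhrs9, a retinol dehydrogenase, by 1.62, Odaph by 1.62 and Krtap10-4 by 1.52. The histone genes H2bc4 (1.70) and Hist2h3c2 (2.11, a name kept from the array) were higher, while H1f1 (-1.17), H1f5 (-0.81) and H3c1 (-0.69) were lower. Hmox1 was separated with a difference of 1.60, but its adjusted p of 0.088 did not pass the threshold.

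**Figure D3:**
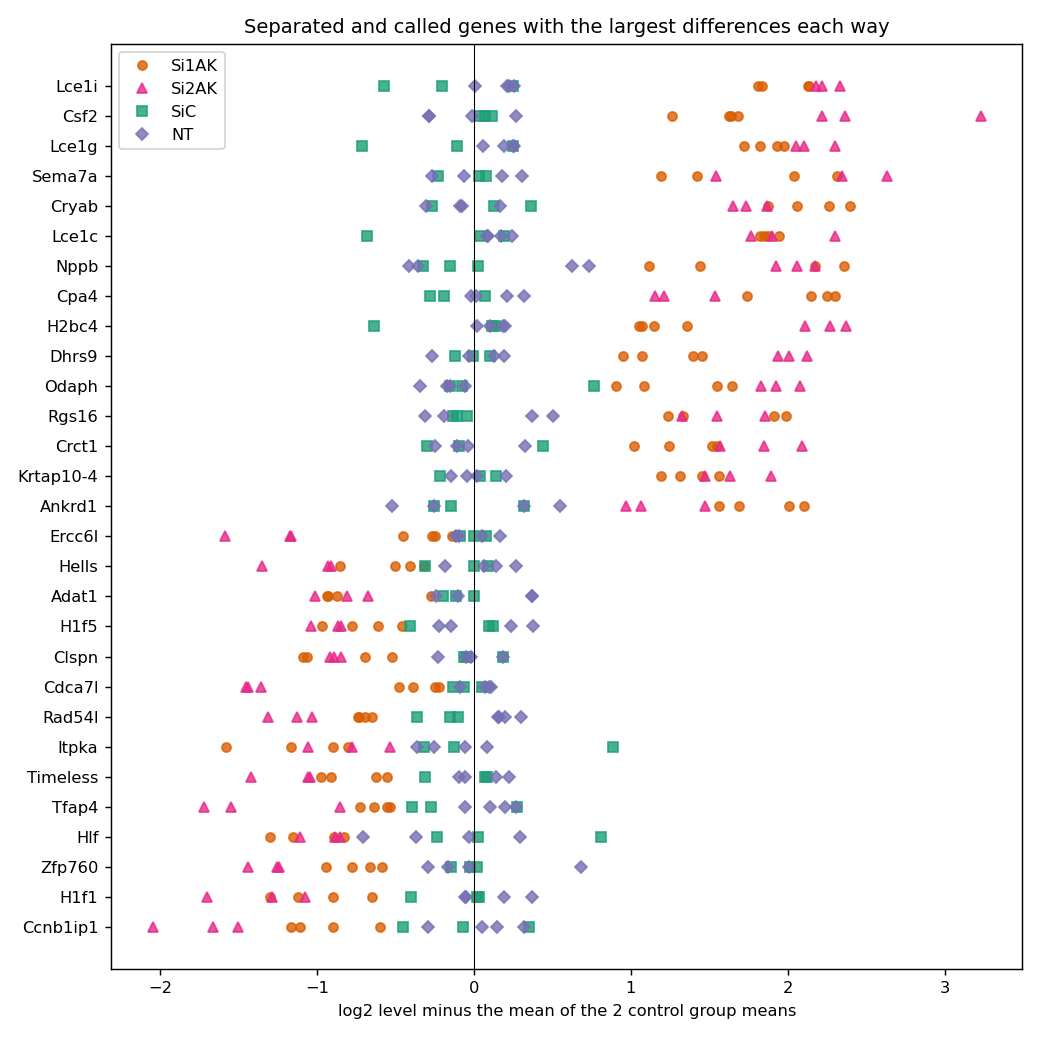
Level on each of the 14 arrays minus the mean of the control group means (log2, horizontal) for 15 named genes with the largest rises and 14 with the largest falls among separated and called genes, with 1 marker per array. The siRNA markers (Si1AK circles, Si2AK triangles) lie on one side of every control marker (SiC squares, NT diamonds) in each row, and Lce1i shows the widest gap at 1.56.

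Most DNA replication genes fell with the siRNAs. Of 52 measured genes of replication and nucleotide supply, 46 were called lower and 0 higher, where 4.72% of all genes were called lower. Their median difference was -0.48, and 13 were separated, where 0.921% of all genes were separated below. Against SiC, 34 were called lower with Si2AK (median -0.53) and 6 with Si1AK (median -0.26), where 3.6% and 0.96% of all genes were. For Si2AK against Si1AK 11 were called lower, where 5.22% of all genes were. Timeless, which protects stalled forks, had 2.16, 2.22, 2.58 and 2.51 in Si1AK and 2.09, 1.71 and 2.07 in Si2AK, against 2.81, 3.21 and 3.20 in SiC and 3.07, 3.03, 3.35 and 3.27 in NT. Its difference was -0.97 ± 0.11 (adjusted p = 0.00025). Clspn, the checkpoint mediator claspin, ran from -1.29 to -0.72 (median -1.09) with the siRNAs and from -0.43 to -0.01 (median -0.24) in the controls. Its difference was -0.86, and Si1AK and Si2AK gave -0.87 and -0.91 against SiC. Gins1, a subunit of the replicative helicase, differed by -0.66, and Mcm7, another subunit of that helicase, by -0.62. Both Gins1 and Mcm7 were separated.

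The mitosis, repair and G1 lists are set beside all genes, of which 4.72% were called lower, 8.31% higher and 0.921% separated below. Against SiC, 3.6% of all genes were called lower with Si2AK and 0.96% with Si1AK. Of 69 mitosis genes, 40 were called lower and 0 higher (median -0.36), with 12 separated. Against SiC, 13 were called lower with Si2AK and 6 with Si1AK. Kif14 (-0.69), Ncapd2 (-0.60), Kif2c (-0.58) and Ska1 (-0.55) were the largest of these, a kinesin, a condensin subunit, a microtubule depolymerase and a kinetochore protein. Of 56 genes of fork protection, cohesion and repair, 23 were called lower and 0 higher (median -0.35), and against SiC 17 were called lower with Si2AK and 3 with Si1AK. Rad54l, a motor of homologous recombination, had 0.45, 0.53, 0.48 and 0.44 in Si1AK and 0.05, 0.15 and -0.13 in Si2AK, against 0.82, 1.03 and 1.08 in SiC and 1.38, 1.34, 1.34 and 1.48 in NT. Its difference was -0.93 ± 0.07 (adjusted p = 1.1e-05), and Si2AK was 0.45 lower than Si1AK. Eme1 (-0.62), Fancc (-0.60) and Palb2 (-0.56) were separated too. The other kept probe of Fancc differed by -0.26, not called. Brca2 differed by -0.99 and was called lower, with overlapping arrays. Of 26 G1 genes, 8 were called lower and 1, Cdkn1a, higher.

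Without Si2AK replicate 2 and SiC replicate 1, 38 replication, 39 mitosis and 16 repair genes were separated on the lower side, in place of 13, 12 and 6. Over all genes, 829 were then separated below in place of 194, so the rise was not particular to these lists. On slide 1 alone 3 replication genes were called lower and on slide 2 alone 27, where 136 and 265 of all genes were. Scaling to the median of each array in place of its 75th percentile moved the median of all genes to 0.40, and the medians of the replication, mitosis and repair lists were then -0.04, 0.08 and 0.08, all still below that of all genes, with 0 members called. Under that scaling the direction of the mitosis and repair medians turned, and 2 genes in all were called.

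Promoters of 16 separated and called lower genes held E2F letters, and those of the 4 with the largest falls are shown: Zfp760, Hells, a chromatin remodeller, Mcm7 and Kif15, a mitotic kinesin. Zfp760 differed by -1.03, Hells by -0.79, Mcm7 by -0.62 and Kif15 by -0.62, and each was separated. They lie at chr17:21707491-21707790 (forward), chr19:38930740-38931039 (forward), chr5:138171834-138172133 (reverse) and chr9:122950831-122951130 (forward), from RefSeq GRCm38.p6. Capitals mark TTTCCCGC or TTTGGCGC, read by E2F factors, or TTTGAA, the CHR element, on either strand, and in Zfp760 also GCTGGGTCA, a match of the NRF2 letters TGACNNNGC on the reverse strand.
Zfp760: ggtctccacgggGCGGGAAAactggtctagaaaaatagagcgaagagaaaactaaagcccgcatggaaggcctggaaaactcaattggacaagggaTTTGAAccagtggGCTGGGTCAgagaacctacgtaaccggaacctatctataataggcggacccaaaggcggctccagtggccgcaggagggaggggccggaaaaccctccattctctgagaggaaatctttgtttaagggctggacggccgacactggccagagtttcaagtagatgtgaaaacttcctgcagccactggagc
Hells: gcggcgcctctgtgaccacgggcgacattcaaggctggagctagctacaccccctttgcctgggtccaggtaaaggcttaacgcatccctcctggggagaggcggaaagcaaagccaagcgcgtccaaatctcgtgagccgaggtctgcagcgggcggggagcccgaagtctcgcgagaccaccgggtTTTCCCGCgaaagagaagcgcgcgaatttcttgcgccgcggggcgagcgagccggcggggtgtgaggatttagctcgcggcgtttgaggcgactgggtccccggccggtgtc
Mcm7: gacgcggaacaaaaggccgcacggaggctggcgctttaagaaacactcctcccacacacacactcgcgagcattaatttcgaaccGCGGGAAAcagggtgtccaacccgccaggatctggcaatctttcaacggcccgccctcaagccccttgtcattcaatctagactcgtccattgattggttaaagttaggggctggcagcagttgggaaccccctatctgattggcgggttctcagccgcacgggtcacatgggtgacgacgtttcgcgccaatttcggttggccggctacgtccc
Kif15: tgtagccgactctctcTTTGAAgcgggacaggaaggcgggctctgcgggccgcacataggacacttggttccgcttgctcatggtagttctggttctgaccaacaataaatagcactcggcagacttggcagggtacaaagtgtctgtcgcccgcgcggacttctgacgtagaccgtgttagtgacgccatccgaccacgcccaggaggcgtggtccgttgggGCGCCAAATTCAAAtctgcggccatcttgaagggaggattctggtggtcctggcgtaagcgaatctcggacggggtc
In Kif15 the E2F letters, 27 bases before the start, run directly into a CHR match. An E2F match on either strand was in 15.2% of promoters of separated lower genes, 1.01% of those of separated higher genes, 2.87% of named tested genes and 1.63% of the whole table. The CHR letters were in 21.0%, 5.79%, 12.3% and 18.1% of these sets. TGANTCA, the AP-1 letters, was in 0.952% of the lower (1 of 105), 7.05% of the higher and 5.53% of the tested set. Over the whole table it was in 7.93%. No p is given, since the sets were picked by their values.

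Further lower genes included Ccnb1ip1, a ubiquitin ligase of the cell cycle, which had -0.98, -1.27, -1.48 and -1.54 in Si1AK and -1.88, -2.04 and -2.42 in Si2AK, against -0.03, -0.45 and -0.83 in SiC and -0.05, -0.23, -0.67 and -0.33 in NT. Its difference was -1.34 ± 0.15 (adjusted p = 0.00031), the largest fall of a named separated gene. Beside H1f1, Timeless, Rad54l and the others given above, large falls were those of Zfp760 (-1.03), the transcription factors Hlf (-0.99) and Tfap4 (-0.99), Itpka (-0.95), Cdca7l (-0.88), Adat1 (-0.79) and Ercc6l, a helicase of mitosis (-0.79). Chtf18, part of a clamp loader, fell by 0.50 with one of the widest gaps among lower genes. For Cdca7l most of the fall came with Si2AK, at -1.37 against SiC, while Si1AK gave -0.29 (adjusted p = 0.11). Ercc6l likewise gave -1.30 with Si2AK against SiC and -0.27 with Si1AK (adjusted p = 0.26 by limma). Itpka was dim, with a mean level of -3.18 with the siRNAs, and Si2AK against SiC was not called (-0.94, adjusted p = 0.063 by limma). Adat1 had other kept probes that were not called, and Pdlim7 among the rises had another probe called at -0.50. Over the named genes and the chromosome 4 region, 34 other probes were kept. Of these, 33 had the same sign as the probe used, and 19 had the same sign and were called.

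In the other keratinocyte and signalling lists, more members were called higher than lower. This was also so over all genes, of which 8.31% were called higher and 4.72% lower. Of 23 wound-activated keratinocyte genes 5 were called higher and 0 lower, and Il24, a cytokine of wounded skin (1.31), S100a7a (0.92) and S100a16 (0.64) were separated. Of 19 basal keratinocyte and hemidesmosome genes 8 were called higher and 1 lower, with Lamb3, a laminin-332 chain (0.51), and Cd44, a hyaluronan receptor (0.33), separated. Of 20 stefins and clade B serpins 8 were called higher and 0 lower. In the YAP and TGF-beta list 7 of 30 were called higher and 3 lower, and in the mesenchymal list 7 of 29 higher and 0 lower, where Itga5, an integrin of the fibronectin receptor (0.71), and Esrp2, an epithelial splicing factor (0.72), were separated. Esrp2 is a gene of epithelial cells, and it was 0.90 higher with Si2AK than with Si1AK (adjusted p = 0.00015). In the junction list 4 of 23 were called higher and 0 lower, and the desmosomal plakophilin Pkp2 (0.62) was separated. In the interferon list 8 of 38 were called higher and 2 lower, with Ifi27 (0.51) and Ddx58, the RNA sensor RIG-I (0.40), separated. The other kept probe of Ddx58 differed by 0.17, not called. In the Notch list 4 of 23 were called higher and 1 lower.

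The NRF2, cholesterol and hypoxia lists are set beside all genes, of which 8.31% were called higher and 4.72% lower. Of 46 NRF2 and glutathione genes 2 were called higher and 3 lower, of 32 cholesterol genes 0 and 1, and of 32 hypoxia and glycolysis genes 2 and 0. Me1, malic enzyme, in the NRF2 list (0.44) and Pfkfb4, a regulator of glycolysis, in the hypoxia list (0.50) were separated. Of 54 genes of the integrated stress and unfolded protein responses 11 were called higher and 0 lower (median 0.17), while none was separated. With the 7 against 7 fit, 1 of the 54 was called higher, where 906 of all 21354 genes were. That list had 31 called higher with Si2AK against SiC and 0 with Si1AK against SiC, where 8.32% and 2.73% of all genes were. For Si2AK against Si1AK 33 were called higher, where 5.65% of all genes were. A pooled call therefore need not mean a call with each siRNA.

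**Figure D4:**
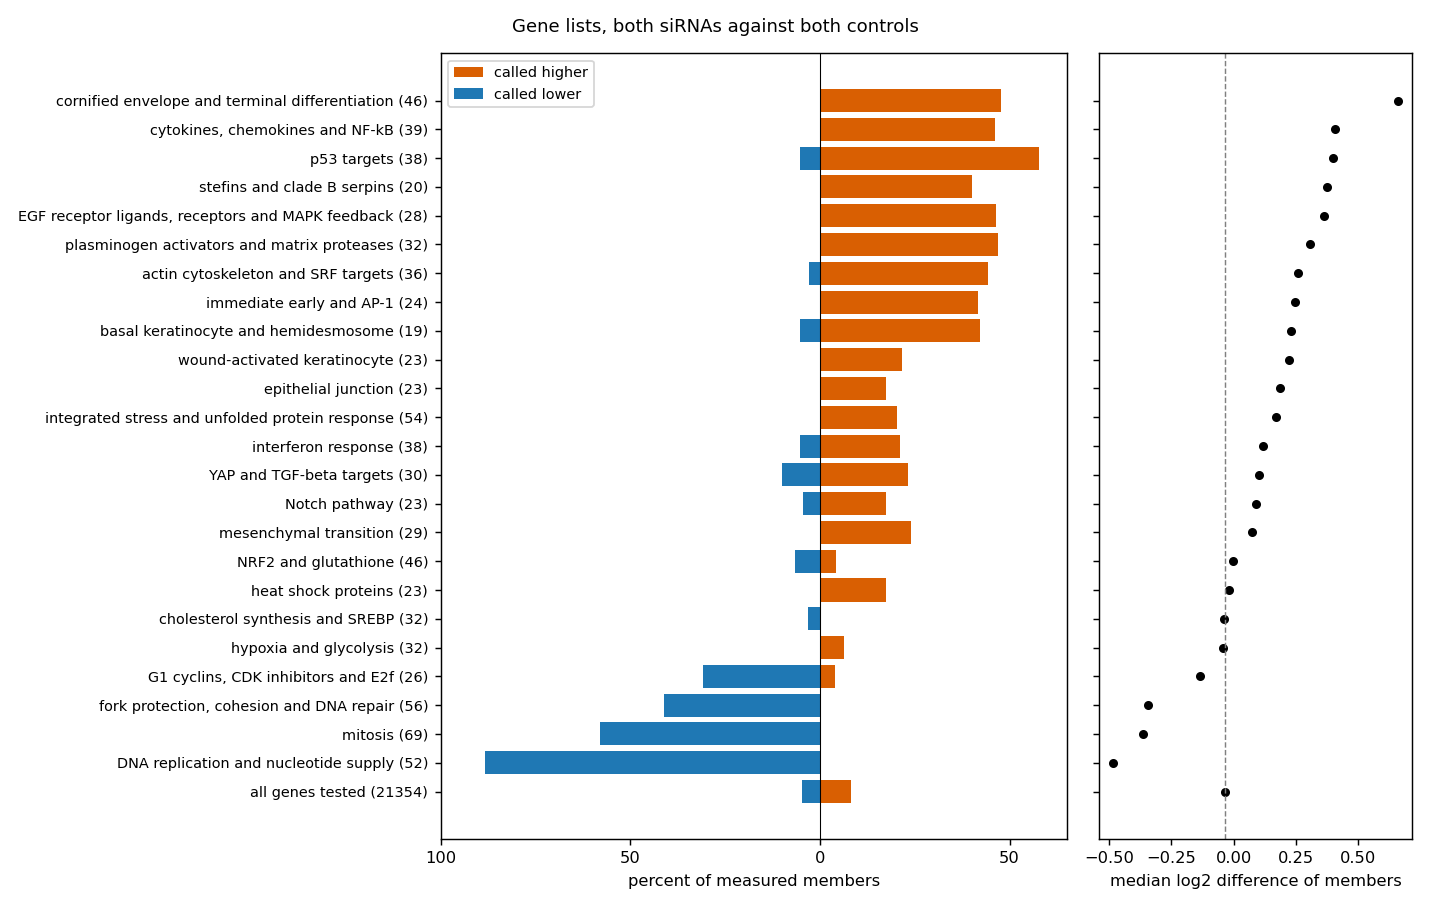
Percent of the measured members of each gene list called higher (right) or lower (left) with the siRNAs, with the number measured in brackets, and the median log2 difference of the members beside it, where the dashed line is the median of all genes. DNA replication has 46 of 52 called lower, and the cornified envelope list has the highest median, 0.66.

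Each siRNA was also set against each control. Si1AK against SiC had 583 genes called higher (2.73%) and 205 lower (0.96%), and against NT 728 (3.41%) and 455 (2.13%). Si2AK against SiC had 1776 (8.32%) and 768 (3.6%), and against NT 1582 (7.41%) and 1319 (6.18%). The comparisons share arrays, so their counts are not independent. SiC against NT had 1 gene called higher (0.00468%) and 0 lower by limma, with 1471 genes at an unadjusted p below 0.05. Si2AK against Si1AK had 1207 (5.65%) higher and 1114 (5.22%) lower. Of the 531 separated and called higher genes, 221 were called for Si1AK against SiC and 424 for Si2AK against SiC. Of the 192 lower, 53 and 133 were. Among the 531, 96 differed between the siRNAs, 74 of them higher with Si2AK, and among the 192, 29 did, 28 of them lower with Si2AK.

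**Figure D5:**
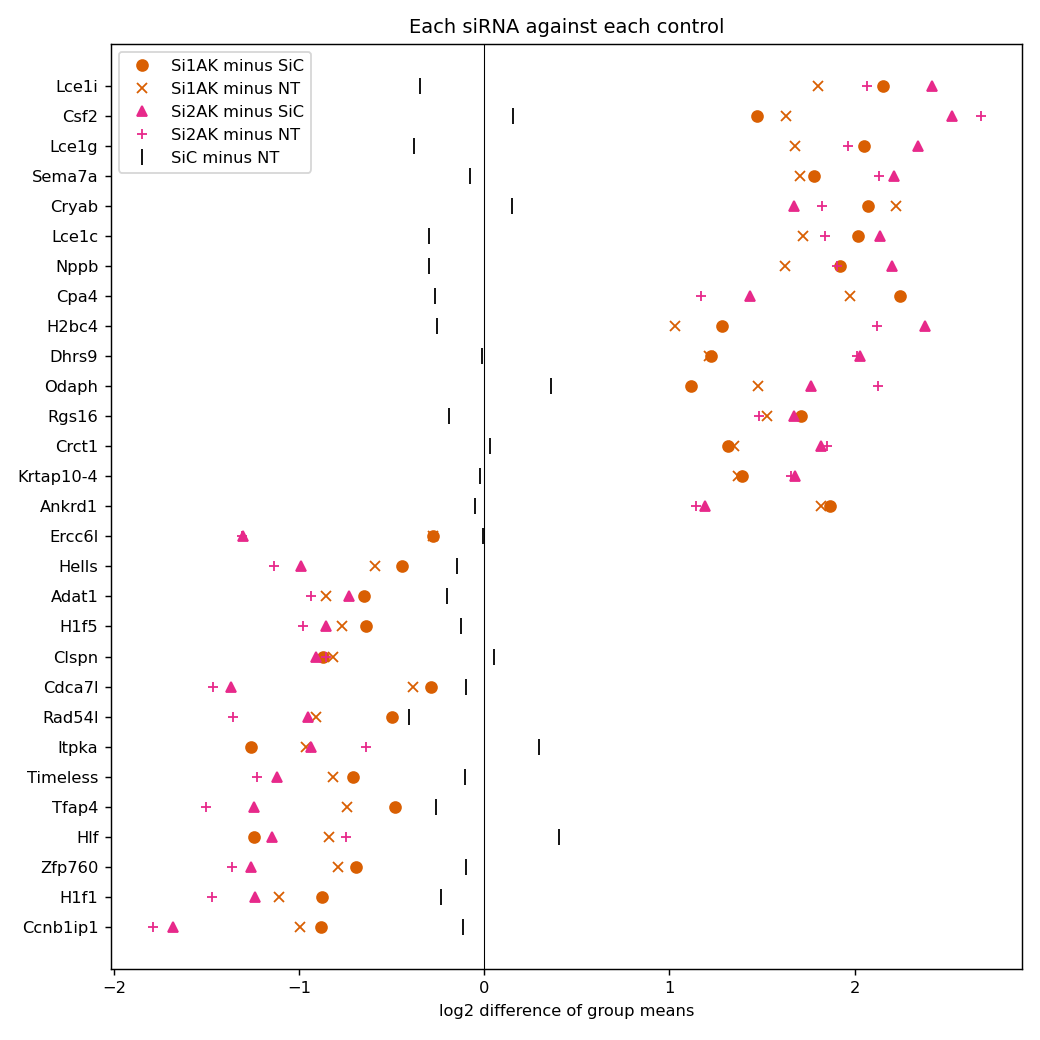
Log2 difference of each siRNA group from each control group, and SiC minus NT, for the same 29 genes, with 1 marker per comparison. The SiC minus NT marks lie between -0.41 (Rad54l) and 0.40 (Hlf). Each siRNA marker lies on the side of 0 of the pooled difference, which was fixed by picking separated genes and is no further result.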

How the data were processed

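Expression was measured in 14 samples of mSCC-38 cells on 1-colour Agilent arrays. Per the file headers, Feature Extraction 10.7.3.1 read the images with probes placed on mm9, and the processed signal deposited is an intensity after background subtraction. Per the file headers, the mean and background signals are intensities as well, and marks of 0 or 1, of a unit other than intensity, record spots above background, saturated or outlying. The log2 values of the authors' deposited table come from these arrays, and their background step is not given in the sources used here, and limma was named in the submitters' processing notes.

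Levels are log2 of the processed signal minus the 75th percentile of each array over non-control spots, averaged over the spots of a probe without outlier flags. Probes were kept if all arrays of some group marked them well above background, and each gene was read by its brightest probe on average. All 14 arrays were fitted with limma 3.58.1 in R 4.3.3 (4 group means, 10 residual degrees of freedom) with Benjamini-Hochberg adjustment over all genes. The fit was tested on simulated data. No probe was saturated, 296 genes lacked single values, and 27737 probes were named through RefSeq (GRCm38.p6), which supplied no probe coordinates.

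Named genes were separated and called: the 15 largest differences and 5 widest gaps in each direction, up to 4 per gene list, 1 unmatched name in each direction and the 2 genes on each side of the edge. Of these, 2 genes are not reported here. Cxcl2, Csf3, Myl9, Hmox1, Brca2, Ckap2, Ddb2, Kif15 and the separated list members beyond these were named after their values were seen. The members and the 29 lists were chosen with earlier results of these data known. Precision is limited by the number of arrays.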

Additional observations from a re-analysis of the deposited data

Results flagged for a closer look

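In groups of 4 arrays, 6 of 170 groups of the named genes held an array far from the other 3, and chance alone flags about 1 in 20. These were Hist2h3c2 in NT replicate 4 (-2.27), Csf2 in Si1AK replicate 3 (-0.12), Plk3 in NT replicate 4 (3.31), Ccn1 in NT replicate 2 (3.75), and in Si1AK replicate 2 S100a16 (5.79) and Adat1 (-0.81).

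The siRNAs differed past the threshold of limma for 25 of the 85 named genes, 21 of them with the larger change in Si2AK. As log2 differences of Si2AK minus Si1AK, genes higher in the pooled comparison gave 0.82 for Hist2h3c2, 1.05 for Csf2, 1.09 for H2bc4, 0.80 for Dhrs9, 0.66 for Acta2, 1.07 for Il1a, 1.42 for Plk3 and 0.62 for Cnn1. Further values were 0.40 for Plk2, 0.90 for Esrp2, 0.77 for Nrg1, 0.68 for S100a16, 0.47 for Maff and 0.48 for Pdlim7. The change was larger with Si1AK for Cpa4 (-0.81), Dcxr (-0.77), S100a7a (-0.51) and Flt1 (-0.35). Genes lower in the pooled comparison gave -0.29 for Palb2, -0.47 for Eme1, -1.03 for Ercc6l, -1.08 for Cdca7l, -0.45 for Rad54l, -0.76 for Tfap4 and -0.79 for Ccnb1ip1.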

How the results depend on the processing

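The counts of 1775 higher and 1008 lower genes depended most on scaling: with the median of each array in place of its 75th percentile, 1 gene was called higher and 1 lower (885 at an unadjusted p below 0.05), 32 were separated above and 1 below, and higher genes made up 50% of calls in place of 63.8%. A fit of 7 against 7 arrays called 906 and 520, no filter on dim probes 1036 and 555, slide 1 alone 390 and 136, and slide 2 alone 404 and 265, while slide as a block on all 14 arrays called 2248 and 1347. On fewer arrays separation is easier, with 2147 above and 987 below on slide 1 and 1685 and 2301 on slide 2. Lower genes numbered 1578 with normexp, 1573 with quantile normalization and 1589 with the authors' deposited value table, and separated lower genes 451 with quantile normalization and 449 with the authors' table. Without Si2AK replicate 2 and SiC replicate 1 there were 1617 lower and 829 separated below. Leaving out 1 array at a time gave 1193 to 2016 higher, 680 to 1604 lower, 558 to 688 separated above and 205 to 684 below. Without Si2AK replicate 2, 315 were separated below, and the highest lower counts, 1604 and 684, were without SiC replicate 1. The cause was not tested. Among named genes, 84 of 85 lost their call with the array median, 37 on slide 1 and 27 on slide 2, and Arhgap11a turned to 0.16 with the array median (adjusted p = 0.85). With replicate number as a block, 1570 genes were called higher and 937 lower, but same-numbered arrays did not pair: their deviations correlated at -0.69 to 0.74 over 19 pairs. Probes close to background are the least certain, and 2 arrays had raised signal.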
